A study of Homo sapiens with 2 samples.

Results

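The carriers that bring amino acids and glucose into SUM159 cells and pass lactate out of them were examined in bulk RNA-seq of doxorubicin-resistant cells. The members are all genes of the solute carrier families SLC1, SLC2, SLC3, SLC7, SLC16, SLC36, SLC38 and SLC43, taken by symbol, and they number 68 of the 23368 gene symbols measured. SUM159 is a triple-negative breast cancer line, here with the wild-type genotype, attached in a monolayer, in medium with serum, insulin and hydrocortisone. The cells were made resistant by long treatment with rising doses of doxorubicin, a topoisomerase II poison. Per the paper, exposure to the drug was followed by recovery in medium without it. There are 2 libraries of polyadenylated RNA, replicates 1 and 2 of this single group, so levels are given and nothing was compared with untreated cells. Nothing states that the replicates came from separate cultures, and the spread between them may be technical.

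Carriers such as these take hydrophilic nutrients across the plasma membrane. The SLC2 proteins let hexoses flow down their gradient, the SLC16 family includes the carriers that move lactate together with a proton, and the amino acid carriers differ in the side chains they accept and in whether sodium, protons or another amino acid drives the transport. Some SLC7 proteins are light chains that reach the membrane only when bound to a heavy chain of the SLC3 family. Proliferating tumor cells are known for high glucose uptake, lactate release and glutamine use.

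The libraries held 23044084 and 17985508 counts. Levels are given as counts per 1000000 counts of the library (CPM). CPM are not divided by gene length, so longer genes weigh more in sums and shares of CPM. The order of genes within a family rests on CPM divided by the summed length of all exons (CPM per kb). At these totals 1 count is 0.0434 CPM in replicate 1 and 0.0556 CPM in replicate 2, and a gene without counts may have up to 0.130 and 0.167 CPM, the levels of 3 counts, as far as counting error goes. The mesenchymal marker VIM had 7542 ± 873 CPM (SD, n = 2), whereas the epithelial markers EPCAM and CDH1 had 6 to 13 counts in each library. Of the receptors that define breast tumor classes, ESR1 had 11 and 9 counts, PGR had 2 and 0, and ERBB2 had 95.1 and 104 CPM. Of 9 markers of leukocytes, endothelium, liver and red cells, 5 had no counts and 3 reached a mean count of 20 (CD14, PTPRC and PECAM1), and all of them together summed to 18.6 and 10.5 CPM. Their part in the results was not tested.

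Of the 68 members, 38 averaged 20 counts or more over the libraries, or 55.9%, where 52.8% of all gene symbols did. No counts in either library were seen for 16 members, or 23.5%, against 28.1% of all symbols. A share this near to that of all genes is no property of the carriers. The members over this minimum had a median of 27.4 CPM, and all genes over it had a median of 34.1 CPM. In bulk RNA, a carrier used by few cells and one with little RNA in every cell cannot be told apart. The sum over all members was 4146 and 4551 CPM in replicates 1 and 2. A few genes held most of this. SLC38A2, SLC7A5 and SLC1A5 accounted for 46.6% of the summed CPM and the 10 highest members for 82.4%.

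**Figure D1:**
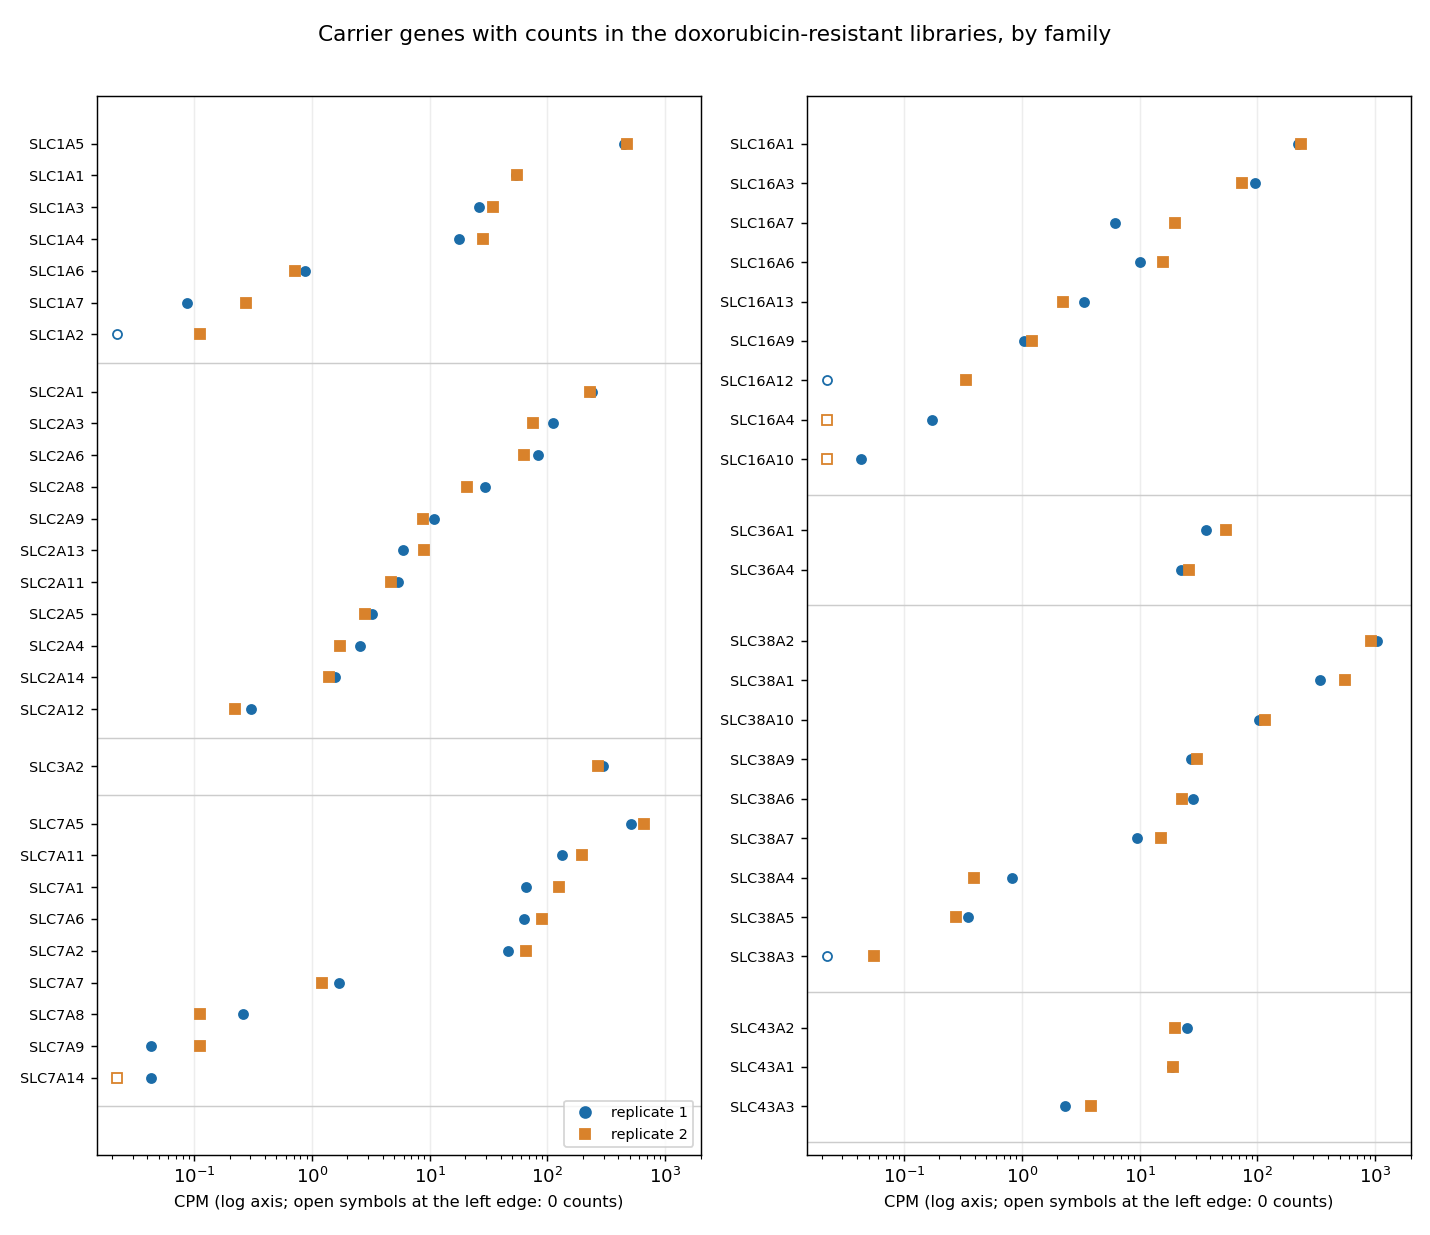
CPM on a log axis of 51 members with at least 1 count, by family, with circles for replicate 1, squares for replicate 2 and open symbols at the left edge for 0 counts. SLC38A2, at 1038 and 919 CPM, lies highest. The families SLC1, SLC2, SLC7, SLC16 and SLC38 fall from 1 or a few abundant genes to members near 0.

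The most abundant glucose carrier RNA was that of SLC2A1, the basal glucose carrier GLUT1 of most proliferating cells. SLC2A1 lies on chromosome 1 from 43391024 to 43424564 in GRCh37. Its level was 237 CPM in replicate 1 and 230 CPM in replicate 2, and the libraries did not differ beyond counting error (adjusted p = 0.189, exact binomial test of edgeR). Per kb of exons it held 41.3% and 48.1% of the summed level of the SLC2 family. SLC2A3, the high-affinity carrier GLUT3 of neurons, had 112 and 74.9 CPM. SLC2A6, a class III member found on lysosomes, had 83.4 and 63.6 CPM. Because its exons are shorter, SLC2A6 came next to SLC2A1 per kb, with 23.6 and 18.0 CPM per kb against 15.5 and 10.3 CPM per kb for SLC2A3. By this length SLC2A6 was above SLC2A3 in each library. Divided by the longest annotated transcripts, SLC2A3 was above in replicate 1 and SLC2A6 in replicate 2. SLC2A8, an intracellular member of the same class, had 29.7 and 20.6 CPM.

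The remaining SLC2 genes were low. Of 14 members 10 reached a mean count of 20, and beyond the genes above the highest was SLC2A9, the urate carrier GLUT9, with 10.9 and 8.84 CPM. SLC2A4, the insulin-regulated carrier of muscle and fat, had 59 and 31 counts, and SLC2A5, the fructose carrier, had 75 and 51. The liver and beta cell carrier SLC2A2 had no counts, and neither did SLC2A7 and SLC2A10. SLC2A14 lies 28.1 kb from its near copy SLC2A3 and had 36 and 25 counts. Of the stretches of 100 bases, the read length, in the SLC2A14 transcripts, 4.24% also occur in those of SLC2A3, and reads from these cannot be told apart.

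SLC16A1 was the leading monocarboxylate carrier. It encodes MCT1, which moves lactate and pyruvate in both directions. SLC16A1, on chromosome 1 from 113454469 to 113500215, had 220 and 235 CPM. SLC16A3, which encodes MCT4, a carrier suited to lactate export from glycolytic cells, had 95.8 and 74.2 CPM. Per kb, SLC16A1 stood 3.34 times as high as SLC16A3 in replicate 1 and 4.60 times in replicate 2. This gap rests on the length: the exons of SLC16A3 sum to 9236 bases over all annotated transcripts, and its canonical transcript, the representative one chosen by Ensembl, has 2599. With canonical transcripts SLC16A1 had 58.0% and 63.2% of the summed level of the family and SLC16A3 had 36.4% and 28.9%. SLC16A1 remained above SLC16A3 in both libraries either way.

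The other lactate carriers were scarce. SLC16A7, the high-affinity carrier MCT2, had 142 counts in replicate 1 and 358 in replicate 2, or 6.16 and 19.9 CPM, and no single level can be given for it. SLC16A8, the carrier MCT3 of the retinal pigment epithelium, had no counts. Among the 10 SLC16 genes of other or unknown substrates, 3 reached a mean count of 20, namely SLC16A6 with 232 and 287 counts, SLC16A13 with 3.38 and 2.22 CPM and SLC16A9 with 1.04 and 1.22 CPM. SLC16A10, which carries aromatic amino acids, had 1 and 0.

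SLC3A2 was the heavy chain of these cells. It encodes CD98hc, the glycoprotein to which 6 light chains of the SLC7 family bind. SLC3A2, on chromosome 11 from 62623476 to 62656352, had 294 and 268 CPM. The other heavy chain, SLC3A1 of kidney and gut, had no counts, and its light chains SLC7A9 and SLC7A13 had 1 and 2 counts and none. Each of these genes was thus below 3 counts in each library. Of the stretches of 100 bases in SLC3A1 transcripts, 25.1% also occur in another annotated gene, so reads from them may not have been counted for SLC3A1. The exons of SLC3A1 also overlap those of PREPL on the opposite strand over 29.4% of their length. Reads there cannot be assigned without a stated strand setting, and PREPL had 1664 and 1802 counts.

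SLC7A5 was by far the highest light chain. It encodes LAT1, which exchanges glutamine for leucine and other large neutral amino acids. SLC7A5, on chromosome 16 from 87863629 to 87903113, reached 512 and 660 CPM in replicates 1 and 2 and held 74.4% and 70.9% of the summed level of the SLC7 family per kb. SLC7A11, the cystine and glutamate exchanger xCT that supplies cysteine for glutathione, lies on chromosome 4 from 139085251 to 139163503. It had 133 and 195 CPM, the next level of the family, or 13.8 and 20.2 CPM per kb against 107 and 138 CPM per kb for SLC7A5. SLC7A6, which exchanges arginine for glutamine, had 63.6 and 89.2 CPM. Its exons overlap those of SLC7A6OS on the opposite strand over 44.4% of its exonic length, where reads cannot be assigned without a stated strand setting, and SLC7A6OS had 158 and 189 counts.

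The other light chains were near 0. SLC7A7, the counterpart of SLC7A6 in epithelia and macrophages, had 39 and 22 counts, and SLC7A8, which encodes LAT2, had 6 and 2. SLC7A10 had none. Fragments of SLC7A5 also stand in the genome as SLC7A5P1 and SLC7A5P2, with 16 and 42 counts and 20 and 22 counts. Of the stretches of 100 bases in SLC7A5 transcripts, 1.74% occur in SLC7A5P2.

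The heavy chain stood at 0.354 times the sum of its 6 light chains per kb in replicate 1 and at 0.246 times in replicate 2. With canonical transcripts these ratios were 1.14 and 0.792, since the canonical transcript of SLC3A2 has 1885 bases and all of its exons sum to 6392. Whether the RNA of the heavy chain falls short of that of its partners therefore depends on the length, and both lengths gave the lower ratio in replicate 2.

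**Figure D2:**
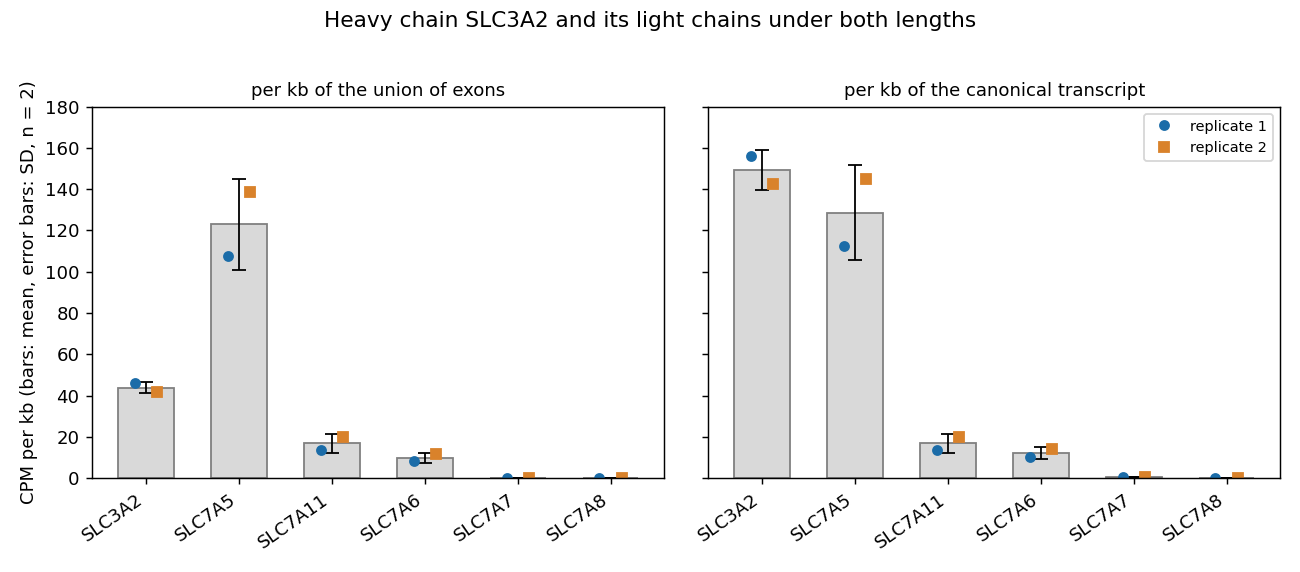
CPM per kb of SLC3A2 and of its light chains with counts, divided by the union of exons on the left and by the canonical transcript on the right, with bars for means, error bars for SD (n = 2), circles for replicate 1 and squares for replicate 2. SLC7A5 exceeds SLC3A2 in the left panel, with a mean of 123 CPM per kb, and their values overlap in the right one, where SLC3A2 has 149 and SLC7A5 129 CPM per kb.

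Cationic amino acids have carriers that need no heavy chain. SLC7A1, which encodes the widespread arginine and lysine carrier CAT1, had 66.4 and 126 CPM in replicates 1 and 2. SLC7A2, an arginine carrier of liver and macrophages, had 45.8 and 65.2 CPM. SLC7A3 and SLC7A4 had no counts, and SLC7A14 had 1 and 0. Of the stretches of 100 bases in SLC7A4, 72.3% also occur in another annotated gene, where reads may not be assigned to either, so its lack of counts says little about its level. SLC7A1 was the higher of the pair in each library, at 8.63 and 16.4 CPM per kb against 5.80 and 8.25 CPM per kb for SLC7A2.

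In the SLC1 family, SLC1A5 held nearly the whole of the level. It encodes ASCT2, a sodium-dependent exchanger of glutamine, serine and other neutral amino acids. SLC1A5, on chromosome 19 from 47278140 to 47291851, had 446 and 477 CPM, and its share of the family was 88.4% and 87.8% per kb. SLC1A4, the related exchanger ASCT1 of serine and alanine, had 17.6 and 28.5 CPM. Of the 5 carriers of glutamate and aspartate, SLC1A1 (EAAT3) had 54.0 and 55.4 CPM and SLC1A3 (EAAT1) had 26.4 and 34.5 CPM. SLC1A2, the main glutamate carrier of the forebrain, had 0 and 2 counts, SLC1A7 had 2 and 5, and SLC1A6 had 20 and 13.

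The highest member of all was SLC38A2. It encodes SNAT2, the sodium-coupled system A carrier of small neutral amino acids that cells raise on amino acid shortage. SLC38A2 lies on chromosome 12 from 46751971 to 46766556. Its 23927 and 16524 counts were 1038 and 919 CPM. SLC38A1, its neighbor at a distance of 88.2 kb, encodes SNAT1 of the same transport system and had 339 and 554 CPM in replicates 1 and 2. Per kb, SLC38A2 was 4.71 times as high as SLC38A1 in replicate 1 and 2.55 times in replicate 2, so the order held while the distance between them did not. SLC38A4, the remaining system A gene, had 19 and 7 counts. The system N genes SLC38A3 and SLC38A5 had 0 and 1 and 8 and 5 counts.

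Of the 6 SLC38 genes of other places and functions, 4 reached a mean count of 20. SLC38A10 had 104 and 116 CPM. SLC38A9, the lysosomal protein that reports arginine to mTORC1, had 27.2 and 30.9 CPM, and SLC38A7, a lysosomal glutamine carrier, had 9.55 and 15.2 CPM. SLC38A6 had 28.7 and 22.8 CPM. SLC38A8 and SLC38A11 had no counts.

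SLC38A2, SLC1A5 and SLC7A5 were the highest members per kb as well. SLC38A2 had 160 and 141 CPM per kb, SLC1A5 had 134 and 143, and SLC7A5 had 107 and 138. SLC1A5 overlapped with both of the others, whereas the lower value of SLC38A2 was above the higher value of SLC7A5. With canonical transcripts their ranges were apart, at 217 and 192 CPM per kb for SLC38A2, 155 and 165 for SLC1A5 and 112 and 145 for SLC7A5. A gap separates them from the next genes, SLC38A1 with 33.8 and 55.3 CPM per kb, SLC3A2 with 45.98 and 41.99 CPM per kb, SLC16A1 with 34.7 and 37.0 CPM per kb and SLC2A1 with 35.9 and 34.8 CPM per kb. These neighbors do not differ beyond their spread, save that SLC3A2 exceeded SLC16A1 and SLC2A1 in each library. With canonical transcripts SLC3A2 joined the leading genes, at 149 ± 9.58 CPM per kb (SD, n = 2).

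The 2 families of lowest summed level were SLC36 and SLC43. Of the proton-coupled carriers, SLC36A1 of the lysosome and plasma membrane had 36.9 and 54.2 CPM and SLC36A4 had 22.6 and 26.5 CPM, whereas SLC36A2 and SLC36A3, which stand beside SLC36A1 on chromosome 5, had no counts. The SLC43 family includes LAT3 and LAT4, which carry large neutral amino acids without a heavy chain. SLC43A1 (LAT3) had 18.7 and 19.1 CPM and SLC43A2 (LAT4) had 22.7 ± 3.90 CPM (SD, n = 2). Per kb the order turned, with 5.32 and 5.42 CPM per kb for SLC43A1 and 2.40 and 1.88 CPM per kb for SLC43A2, since the exons of SLC43A2 sum to 10605 bases. SLC43A3, a purine nucleobase carrier, had 54 and 69 counts. Of the stretches of 100 bases in SLC43A3 transcripts, 19.7% also occur in another annotated gene, so reads from them may not have been counted for SLC43A3. The summed CPM per kb of LAT3 and LAT4 was 7.51 ± 0.291 (SD, n = 2), against 123 ± 21.9 CPM per kb for SLC7A5 (SD, n = 2).

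**Figure D3:**
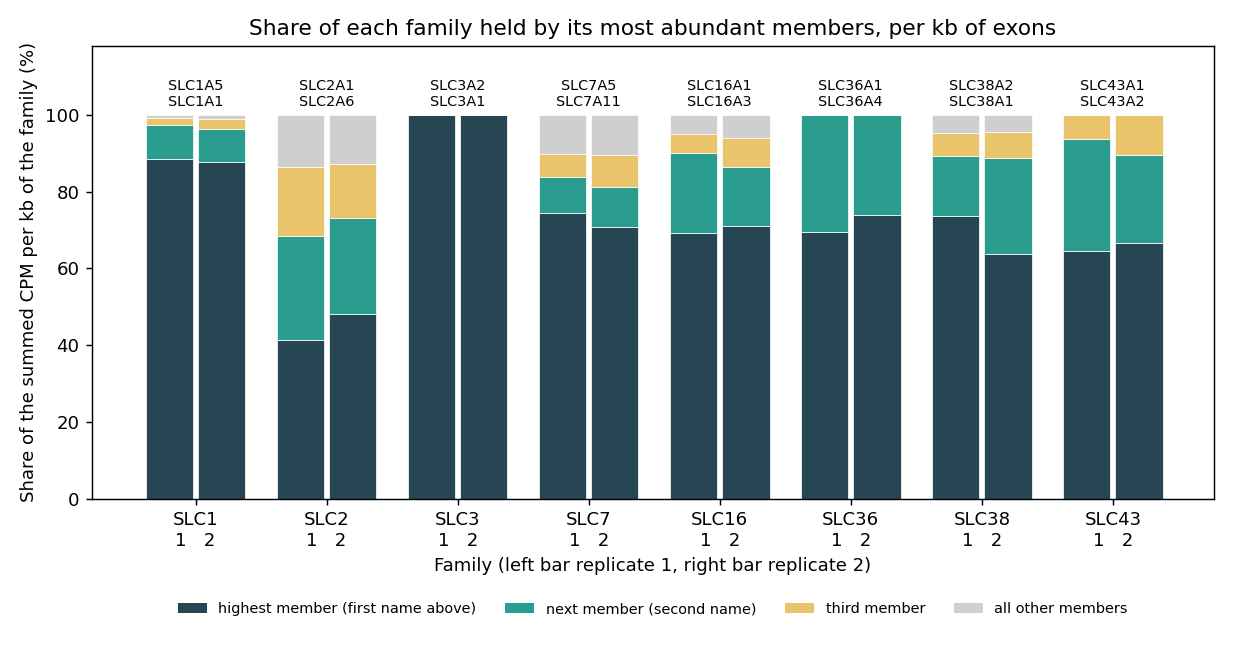
Share of the summed CPM per kb of each family held by its highest member, the next, the one after that and all others, with the left bar for replicate 1 and the right bar for replicate 2. The highest member holds from 41.3% (SLC2A1 in replicate 1) to 88.4% (SLC1A5 in replicate 1) in the families other than SLC3, where SLC3A2 has all counts.

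The libraries were set against each other to see which levels depend on the library. Of the 43 members with at least 10 counts over both, 26 differed by the exact binomial test of edgeR at an adjusted p below 0.05, and 57.7% of all genes tested did. Higher values in replicate 1 were found for 8 of them and in replicate 2 for 18, where 27.6% and 30.1% of all genes were called in each direction. The test compares the libraries and not conditions. Both this test and a difference of at least 1.5-fold were passed by 8 members, all higher in replicate 2, against 16.6% of all genes tested. Over the 38 members with a mean count of at least 20, the median SD was 18.4% of the mean, against 14.4% for all such genes.

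The largest difference, on the log2 scale with 0.5 CPM added and at a mean count of at least 20, was that of SLC16A7, 3.23 times as high in replicate 2 (adjusted p = 5.37e-35, exact binomial test of edgeR). SLC7A1 was 1.90 times (adjusted p = 8.42e-84) and SLC38A1 was 1.63 times as high in replicate 2 (adjusted p = 2.04e-234, same exact test). SLC43A3 had a ratio of 1.64 without the added 0.5 CPM, on 54 and 69 counts. In the other direction, SLC2A3 was higher in replicate 1 by 0.58 on the log2 scale (adjusted p = 3.45e-33) and SLC2A8 by 0.52 (adjusted p = 3.46e-08, same exact test). SLC16A13 had a ratio of 1.52 on fewer counts and did not pass (adjusted p = 0.0556 in the exact test), and neither did SLC38A4 with 2.12 on 19 and 7 counts (adjusted p = 0.169 in the exact test). Of the highest members of the families, SLC1A5, SLC16A1, SLC2A1, SLC3A2, SLC38A2 and SLC43A1 differed by at most 1.13-fold. SLC1A5, SLC16A1, SLC3A2 and SLC38A2 still passed the exact binomial test (adjusted p of at most 0.00482), and SLC2A1 and SLC43A1 did not. SLC7A5 was 1.29 times (adjusted p = 1.68e-83) and SLC36A1 was 1.47 times as high in replicate 2 (adjusted p = 2.02e-15, same exact test).

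These differences followed transcript length. Members that were higher in replicate 1 had canonical transcripts with a median of 2545 bases and those higher in replicate 2 of 5168 bases. The medians of the summed exons lay closer together, at 6450.5 and 7638 bases. Across the 38 members with a mean count of at least 20, Spearman's rho between the log2 ratio of replicate 1 over replicate 2 and length was −0.64 for canonical transcripts and −0.40 for exons. Across the 10767 genes with a mean count of at least 20 and a known exonic length, rho for exons was −0.56. Both values share the 2 libraries and genes are not independent replicates, so they are descriptions. SLC43A2, with 8133 bases and a higher value in replicate 1, and SLC43A3, with 2619 bases and a higher value in replicate 2, went against the trend. The part of length in any single difference was not tested.

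**Figure D4:**
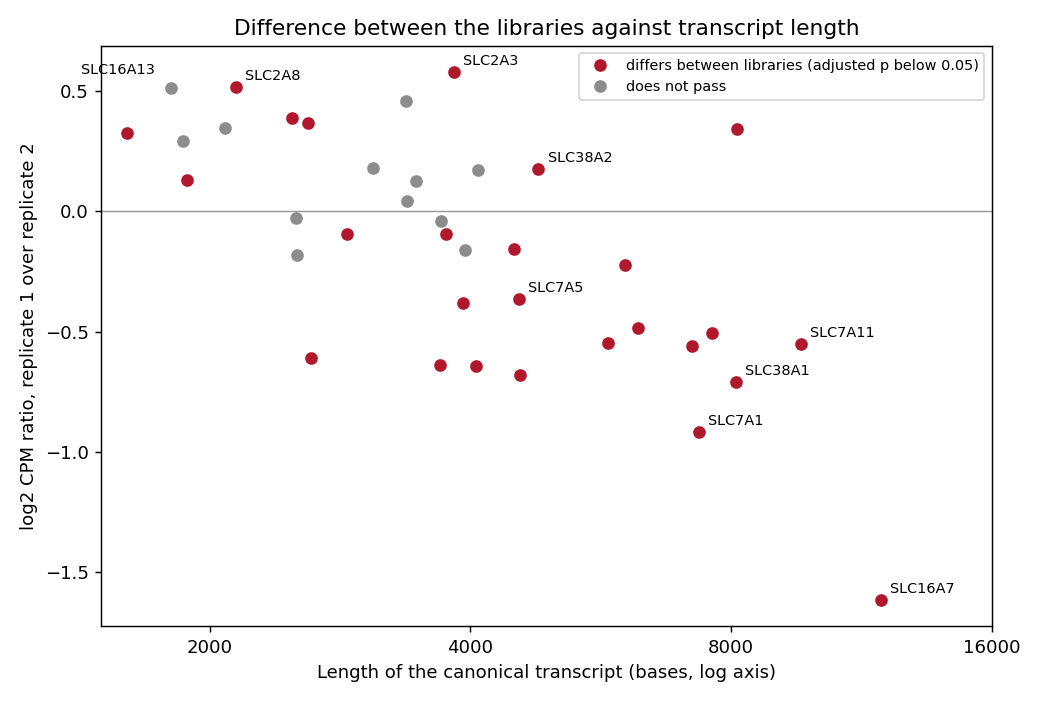
The log2 ratio of CPM, replicate 1 over replicate 2 with 0.5 CPM added to each, against the length of the canonical transcript on a log axis for the 38 members with a mean count of at least 20, red where the exact binomial test passed. Points fall from left to right, and SLC16A7 lies lowest at −1.61 and SLC2A3 highest at 0.58.

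The promoters of the members are shown because their CpG content differed between carriers above and below a mean count of 20. CpG-rich promoters are typical of genes that many tissues use. Windows of 250 bases before a start site were found in the RefSeq table of GRCh38 for 51 of the 68 members, and where a gene had several the one with the most CpG was taken. The 30 members that averaged 20 counts or more had a median of 24 CpG and the 21 below it had 7. Over all symbols with a window the medians were 23 and 7, so the carriers resemble other genes in this. At least 10 CpG stood in 26 of the 30 (86.7%) and in 8 of the 21 (38.1%), against 91.3% and 43.1% of all symbols with a window. The windows below, placed on GRCh37 by an exact match, are those of the highest member, the highest light chain, a glucose carrier without counts that is poor in CpG and one that is rich in it, with CpG in capitals.
SLC38A2, chr12:46766557-46766806, minus strand, 26 CpG: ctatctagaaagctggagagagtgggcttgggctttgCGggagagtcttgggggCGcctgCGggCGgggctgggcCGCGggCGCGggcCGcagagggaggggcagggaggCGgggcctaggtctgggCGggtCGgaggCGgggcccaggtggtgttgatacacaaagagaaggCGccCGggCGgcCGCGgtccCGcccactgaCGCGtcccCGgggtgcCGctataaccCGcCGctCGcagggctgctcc
SLC7A5, chr16:87903114-87903363, minus strand, 34 CpG: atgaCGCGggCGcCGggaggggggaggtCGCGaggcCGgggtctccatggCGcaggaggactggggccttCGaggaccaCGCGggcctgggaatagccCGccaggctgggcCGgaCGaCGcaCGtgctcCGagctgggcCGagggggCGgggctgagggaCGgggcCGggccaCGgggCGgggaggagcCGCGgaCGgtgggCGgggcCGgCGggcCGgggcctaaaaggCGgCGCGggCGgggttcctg
SLC2A2, chr3:170744510-170744759, minus strand, 2 CpG: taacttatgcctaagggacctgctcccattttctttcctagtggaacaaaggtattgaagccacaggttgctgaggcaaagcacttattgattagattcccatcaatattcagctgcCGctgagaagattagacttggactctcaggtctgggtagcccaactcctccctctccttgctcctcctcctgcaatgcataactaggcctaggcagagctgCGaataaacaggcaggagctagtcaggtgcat
SLC2A10, chr20:45338038-45338287, plus strand, 22 CpG: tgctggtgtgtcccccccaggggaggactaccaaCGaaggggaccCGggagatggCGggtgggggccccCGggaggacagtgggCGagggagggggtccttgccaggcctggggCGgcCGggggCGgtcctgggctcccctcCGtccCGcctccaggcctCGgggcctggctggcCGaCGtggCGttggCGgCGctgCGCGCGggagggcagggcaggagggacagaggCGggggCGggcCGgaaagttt

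The richest windows among members below a mean count of 20 were those of SLC16A12, SLC16A10, SLC1A6 and SLC2A10, with 34, 28, 23 and 22 CpG. SLC16A12 had 0 and 6 counts, SLC16A10 had 1 and 0, SLC1A6 had 20 and 13 and SLC2A10 had none. In the other direction, SLC1A3 had 7 CpG and 30.5 ± 5.73 CPM and SLC2A9 had 3 CpG and 9.89 ± 1.48 CPM (SD, n = 2 each). Windows rich in CpG thus occurred at both ends of the range of levels.

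Several amino acid carriers are known targets of ATF4, the transcription factor of the amino acid response, and the letters TGATGCAA, one form of its element, were searched on both strands. They stood in 2 of the 51 members with a window, against 0.967% of 27305 genes in the table. The windows of SLC38A2, SLC7A5 and SLC7A1 held no match. Members without a window, SLC7A11 among them, were not searched. Both members with a match belong to the SLC1 family, and the stretches around the matches are shown with the match in capitals.
SLC1A5, chr19:47288141-47288188 of GRCh37, minus strand: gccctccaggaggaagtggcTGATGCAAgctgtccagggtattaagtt
SLC1A3, chr5:36596450-36596497 of GRCh37, plus strand: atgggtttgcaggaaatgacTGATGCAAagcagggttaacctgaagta
The match begins 97 bases before a start site of SLC1A5 and 220 bases before a start site of SLC1A3. In both genes another start site had a window richer in CpG, and which start site these cells use was not measured. A match is a run of letters and not a bound site.

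**Figure D5:**
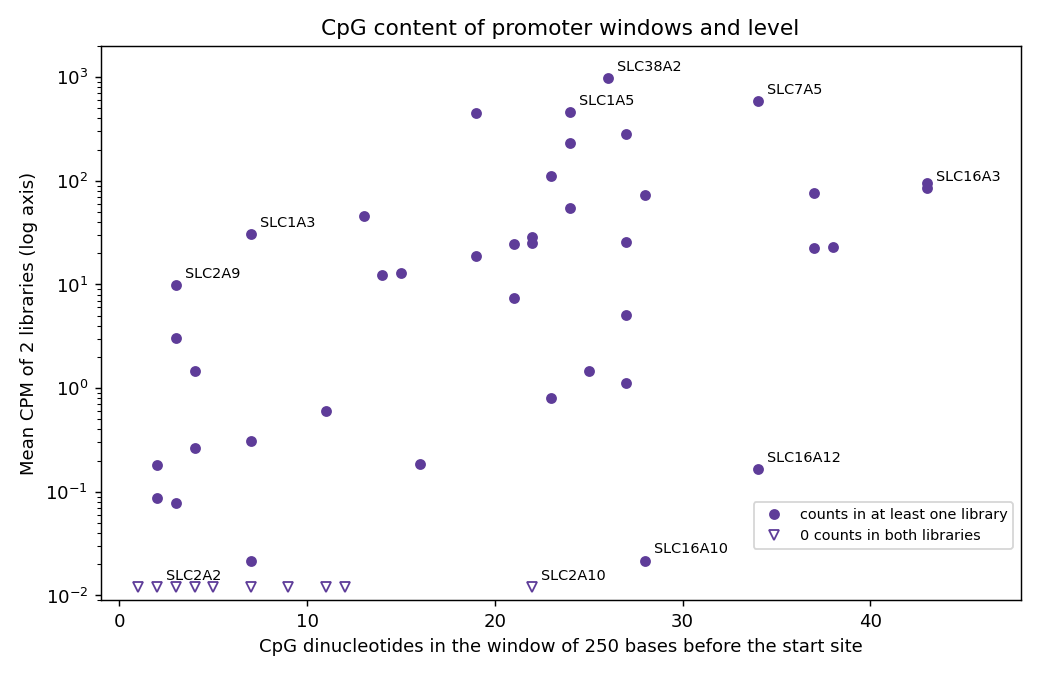
Mean CPM of the 2 libraries on a log axis against the number of CpG dinucleotides in the promoter window of each of the 51 members with a window, with triangles at the lower edge for members without counts. SLC38A2 and SLC7A5 stand at 26 and 34 CpG, and SLC2A2 and SLC2A10, both without counts, at 2 and 22.

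Among members that lie side by side, SLC36A1 had 45.5 ± 12.2 CPM (SD, n = 2), whereas SLC36A2, at a distance of 89.5 kb, and SLC36A3 beyond it had no counts. SLC2A7, without counts, lies 8.68 kb from SLC2A5. SLC16A11, also without counts, lies 1503 bases from SLC16A13. SLC38A1 and SLC38A2 were the only neighboring members within 200 kb that were both above 100 CPM.

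Of the proteins that carry these transporters to the membrane or remove them, 7 genes were listed, and all averaged 20 counts or more, where 52.8% of all symbols did. The highest, also per kb, was BSG, basigin, the chaperone that brings MCT1 and MCT4 to the membrane, with 1049 and 770 CPM, and the related chaperone genes NPTN and EMB had 186 and 172 CPM and 7.72 and 12.1 CPM. EMB and ARRDC4, with 25.6 and 26.4 CPM, were below the median of 34.1 CPM of all genes over the minimum. TXNIP, an arrestin-like protein that removes GLUT1 from the membrane, had 386 and 229 CPM in replicates 1 and 2. Of 26 amino acid, glucose and related carriers of other families, 7 averaged 20 counts or more and 8 had no counts. Among all symbols, 52.8% averaged 20 counts or more and 28.1% had no counts. Of the 26 listed carriers, the highest with a known exonic length was SLC6A6, the taurine carrier, with a mean of 21.3 CPM per kb. Next came SLC50A1, a sugar carrier, with 14.7 and SLC5A3, the myo-inositol carrier, with 9.71 CPM per kb. The sodium-coupled glucose carriers SLC5A1 and SLC5A2 had 0 and 1 counts and 1 and 1, and SLC5A8, a sodium-coupled carrier of monocarboxylates, had none.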

How the data were processed

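Polyadenylated RNA of SUM159 cells resistant to doxorubicin was measured in 2 libraries of 1 group. The authors deposited 1 file of unnormalized read counts by gene symbol for each library, which per the paper and the submitters' processing notes come from FastQC, HISAT2 on hg19 and HTSeq within Galaxy. The notes also list deepTools. Of these tools no version is known here, nor the gene models or the strand option used for counting. Reads outside genes have no rows.

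CPM were computed from the library totals, 23044084 and 17985508. Exonic lengths, transcripts and coordinates came from GENCODE 44 on GRCh37, matched by symbol for all 68 members and for 82.6% of 23368 symbols. The libraries differed beyond counting error (chi-square of 944379 on 13743 degrees of freedom) and were kept as 2 replicates. They were compared over 13744 genes with at least 10 counts by the exact binomial test of edgeR with Benjamini-Hochberg adjustment. On simulated libraries over 13751 genes this test recovered 100% of 200 differences of 2-fold and wrongly called 0.317% of the rest. The simulated libraries varied by counting error only, and the differences were set in genes with at least 200 counts over both. The 0.317% therefore does not apply to the real libraries, which differed by more than counting error. No test between conditions was made. Values of 1 member are not reported here. Members were taken by symbol, and the families and lists were chosen with earlier results of these data known. Named were the 2 highest members of each family, both heavy chains and all light chains, the lactate carriers and the 3 largest differences in each direction at a mean count of at least 20, on the log2 scale with 0.5 CPM added; other members named singly were chosen after their values were seen. Alternatives covered the minimum count, scaling by TMM and by DESeq2, lengths, filter and each library left out. Python 3.11.15, R 4.3.3, edgeR 4.0.16 and DESeq2 1.42.0 were used.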

Additional observations from a re-analysis of the deposited data

How the results depend on the processing

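The highest member of each family was the same whether levels were divided by exons, by the longest transcript or by the canonical transcript, a length added after the data had been seen. Without division by length, SLC43A2 took the place of SLC43A1. The mean share of a family moved by more than the spread between libraries as follows. Without division by length it was 80.9% for SLC1A5, 51.6% for SLC2A1, 60.2% for SLC7A5, 66.2% for SLC16A1, 64.6% for SLC36A1, 61.2% for SLC38A2 and 42.4% for SLC43A1. With the longest transcript it was 87.2% for SLC1A5, 52.5% for SLC2A1, 68.2% for SLC16A1 and 65.6% for SLC36A1, and with the canonical transcript it was 85.1% for SLC1A5, 60.6% for SLC16A1 and 65.6% for SLC36A1. SLC3A2 over its light chains was 0.300 with exons, 0.640 with the longest and 0.964 with the canonical transcript. Leaving the 10 most abundant genes out of the library total raised the summed CPM of SLC16 to 362 and of SLC38 to 1691. Of the members, 26 differed between the libraries under the main setting, 8 with a 1.5-fold minimum added, and 26 to 27 under the other scalings and filter. TMM and DESeq2 scaling kept the mean of every summed level within the spread between libraries. With 2 libraries such scaling raises 1 and lowers the other, so this mean could hardly move. A minimum mean count of 10 or 50 left 41 or 34 members. No paired analysis was possible because there is a single group. A single condition with 2 libraries limits every statement to levels, and at this depth a gene without counts may still have up to 0.167 CPM.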
